A study of Homo sapiens with 30 samples.

Results

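Cells of the A375 line that had crossed a membrane of 5 µm pores in 5 sequential rounds were compared with parental cells that had not crossed, both sorted as negative for surface integrin β4. The comparison took 6 of the 30 RNA libraries of the study, 3 of Bottom 5 negative cells and 3 of Parental negative cells, chosen by their titles. A375 is an established human melanoma line. All 6 libraries came from cells grown in the same supplemented medium and sorted as falling below an ITGB4 antibody gate that was set on unstained cells. The Bottom 5 cells had been recovered under the membrane, whose underside carried fibronectin, and expanded between rounds. The labels name 2 sorters without giving the one used for each sample, and do not say how the biological replicates were kept apart. Unless a fit of fewer libraries is named, the p-values below rest on the scatter within the 10 groups of all 30 libraries. That scatter may be technical.

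Integrin β4 pairs with integrin α6 to bind laminin and to anchor hemidesmosomes, the junctions that tie epithelial cells to the basement membrane. In melanoma lines, cells move between a pigmented state that depends on MITF and SOX10 and less differentiated states with lower expression of both. Passage through pores narrower than the nucleus forces the nucleus to deform and keeps only cells able to pass. Because cells also expanded between rounds, a level after 5 rounds describes a population that was both selected and cultured.

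The 6 libraries held between 15321855 and 20148894 counts on genes. None was a copy of another. On the first principal component of all libraries (32.4% of the variance), replicate 1 of both groups lay apart from replicates 2 and 3, at -77.9 for Parental and -34.7 for Bottom 5 against 3.60 to 55.1 for the other 4. Bottom 5 replicate 2 was also 1 of 6 libraries above 30 on the second component. Lineage genes matched the label in part: SOX10, a melanocyte and neural crest factor, was at 1369, 764 and 594 CPM (counts scaled to library size) in Parental replicates 1, 2 and 3 and at 985, 287 and 317 CPM in Bottom 5, and MITF lay between 32.4 and 66.3 CPM. The pigment enzyme TYR had 0 counts in all 6 libraries. The pigment cell antigens PMEL and MLANA lay at or below 1.05 and 0.498 CPM. Markers of other cell types were mixed. CD3E was at 0 in all 6 libraries, PTPRC was at most 0.124 CPM, PECAM1 at most 0.309 CPM, KRT5 at most 0.394 CPM and COL1A2 at most 0.299 CPM. The same lists also hold genes that were present, with KRT10 up to 133 CPM, PERP up to 114, CD68 up to 111, EGFL7 up to 18.4, KRT14 up to 17.5, COL1A1 up to 16.3 and LUM up to 11.4. Summed over the list, keratinocyte markers lay at 151 to 197 CPM in Parental and 166 to 277 in Bottom 5, fibroblast markers at 14.3 to 20.7 and 13.4 to 31.9, endothelial markers at 21.8 to 23.0 and 18.7 to 23.4, and leukocyte markers at 43.6 to 80.8 and 60.4 to 114. The part of such cells in the results was not tested.

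ITGB4 transcript was at 24.6, 33.7 and 25.1 CPM in the Parental libraries and at 157, 51.0 and 51.0 CPM in the Bottom 5 libraries. All 3 crossed libraries lay above all 3 parental ones, as for 7.15% of all genes tested, although both groups carry the negative label. The log2 fold change was 1.63 ± 0.86 (SE), with an adjusted p of 0.611 in the edgeR fit and 0.0764 with the replicate number as a block in the 2 groups, so it passed neither test. Parental positive cells averaged 100 ± 66.6 CPM (SD, n = 3). The sort acted on surface protein, which was not measured here. The other 9 genes of the hemidesmosome and laminin receptor list did not pass the test either.

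Few genes passed the test between the groups, and more of those were lower than higher in Bottom 5 cells. At an adjusted p of 0.05, 132 of 15381 genes differed (0.858% of those tested). Of these, 41 were higher in Bottom 5 cells (0.267%) and 91 were lower (0.592%). Among the 132 genes, 125 differed at least 2-fold and 61 at least 4-fold. Their 3 and 3 libraries did not overlap, a property shared by 13.7% of all genes tested. Over all genes the balance was the other way, with 1100 higher (7.15%) and 1014 lower (6.59%) without overlap and 52.5% of log2 fold changes positive.

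The number of calls depended on how the replicates were treated. Deviations from group means correlated at 0.590, 0.379 and 0.415 between libraries of equal replicate number 1, 2 and 3. Parental replicate 2 with Bottom 5 replicate 3 gave 0.436, above the values of the equal numbers 2 and 3. A block for the replicate number gave 220 calls in the fit of all 10 groups (1.43% of genes, with 70 higher, 0.455%, and 150 lower, 0.975%). In a fit of the 6 libraries alone it gave 542 (3.82% of 14192, with 168 higher, 1.18%, and 374 lower, 2.64%). Of the 132 genes, 132 and 116 were again called. On simulated counts without replicate effects, the blocked fit of the 6 libraries called 0 of 100 2-fold and 0 of 98 4-fold changes. A fit of the 6 libraries without the block called 0 of those 14192 genes, with 963 at an unadjusted p under 0.05. Leaving out Parental replicate 1 left 30 calls, Parental replicate 2 left 49, Bottom 5 replicate 2 left 40 and Bottom 5 replicate 3 left 29. In total 23 of the 132 genes were called in each of the 6 fits that left out 1 library, 7 higher and 16 lower.

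**Figure D1:**
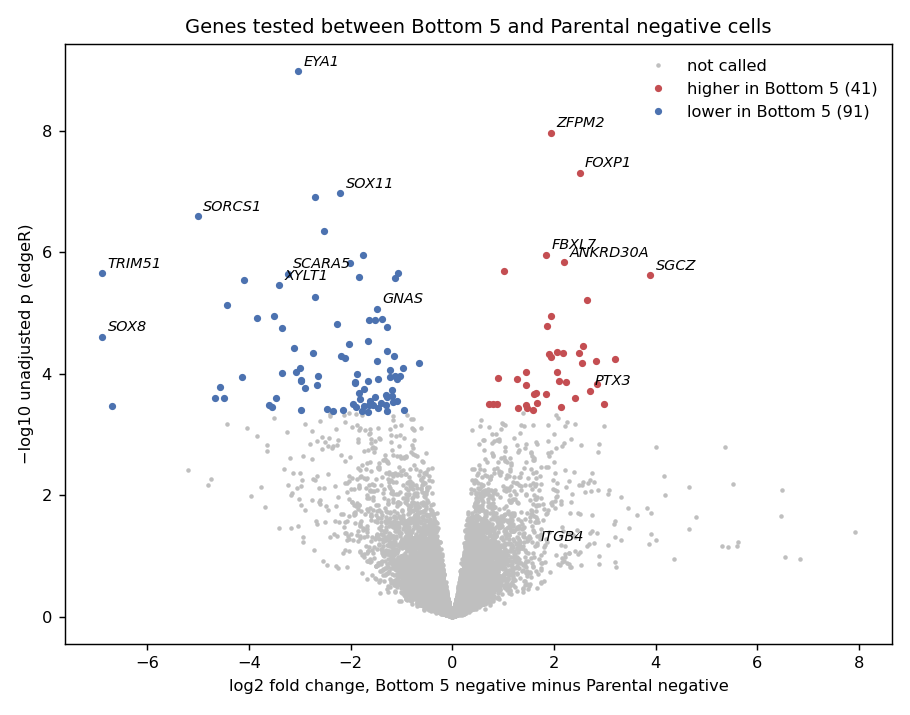
Log2 fold change of Bottom 5 against Parental negative cells (horizontal axis) and −log10 of the unadjusted p from edgeR (vertical axis) for 15381 genes. Red points mark the 41 genes called higher and blue points the 91 called lower, and ITGB4 lies among the grey points that were not called.

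Of the 41 higher genes, 7 were called in every fit that left out 1 of the 6 libraries: FOXP1, ZFPM2, FBXL7, ANKRD30A, ARNTL2, TRPC4 and SGCZ. FOXP1, a forkhead transcription factor, was at 5.73, 3.44 and 4.45 CPM in the Parental libraries and at 26.8, 27.0 and 23.5 CPM in the Bottom 5 libraries. Each crossed library was more than 4 times the highest parental one, and the log2 fold change was 2.51 ± 0.32 (SE, adjusted p = 2.54e-04 by edgeR). ZFPM2, a cofactor of GATA factors, was at 7.31, 7.83 and 9.07 CPM in Parental cells and at 28.2, 28.4 and 35.8 CPM in Bottom 5 cells. It rose by 1.93 ± 0.23 on the log2 scale (adjusted p = 8.34e-05), and its antisense gene ZFPM2-AS1, whose reads could not be told apart without strand, was at 7.37, 5.61 and 4.79 CPM against 7.79, 2.99 and 2.49 CPM (log2 fold change -0.43, not called). FBXL7, the substrate-binding subunit of a ubiquitin ligase, was at 5.2, 5.98 and 4.28 CPM in Parental cells and at 26.2, 13.2 and 16.0 CPM in Bottom 5 cells, a log2 fold change of 1.84 ± 0.28 (adjusted p = 0.00192). The breast differentiation antigen gene ANKRD30A averaged 2.58 ± 1.15 and 11.9 ± 3.78 CPM (SD, n = 3).

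The other higher genes named by rule have varied functions. PKP2, a plaque protein of desmosomes, was at 3.86, 4.87 and 8.22 CPM in Parental cells and at 14.3, 22 and 29.1 CPM in Bottom 5 cells. In each pair of equal replicate number the crossed library was over 3 times the parental one, and PKP2 rose by 1.95 ± 0.35 (log2, adjusted p = 0.00667). PTX3, a secreted pentraxin of innate immunity, was at 2.92, 9.52 and 14.9 CPM in Parental cells and at 60.5, 64.9 and 52.3 CPM in Bottom 5 cells. The crossed libraries were close to each other while the parental ones spanned a wide range, and the log2 fold change was 2.70 ± 0.61 (adjusted p = 0.0343), kept in 1 of the 6 fits without a library. MSLN, the surface glycoprotein mesothelin, averaged 4.54 ± 0.654 and 17.6 ± 4.82 CPM (SD, n = 3 each, adjusted p = 0.0170 by edgeR). S1PR1, a receptor for sphingosine 1-phosphate, averaged 2.73 ± 2.13 and 12.8 ± 2.63 CPM (adjusted p = 0.0278 by edgeR). Both were kept in 1 of 6 such fits. The remaining higher genes named by rule were FAM155A, an auxiliary subunit of a sodium leak channel, SH3GL2, an endophilin of synaptic vesicle endocytosis, SYBU, which links cargo to kinesin, and SLC35F3, with log2 fold changes of 1.89, 1.85, 1.67 and 1.64.

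**Figure D2:**
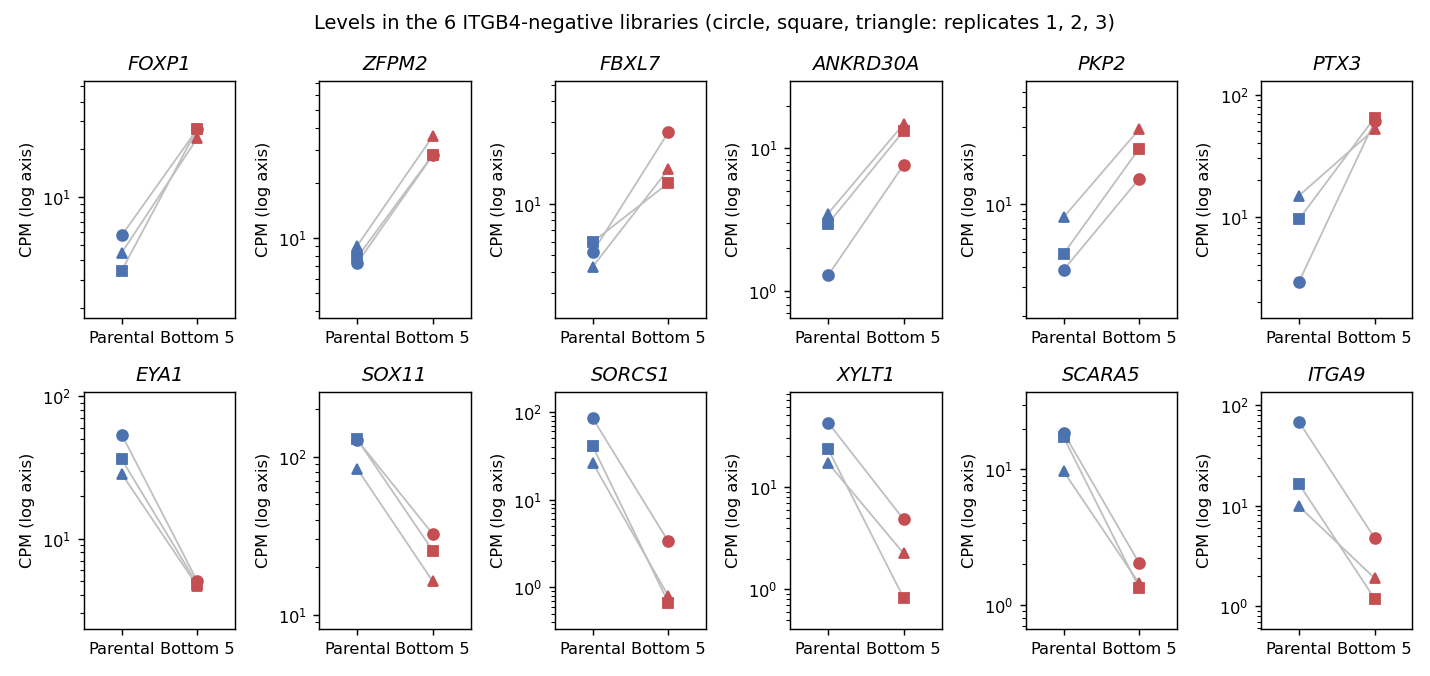
CPM on a log axis in the 3 Parental negative (blue) and 3 Bottom 5 negative (red) libraries for 12 called genes, with lines joining equal replicate numbers. The 6 genes of the top row lie higher in every Bottom 5 library and the 6 of the bottom row lower, and the EYA1 libraries of Bottom 5 fall within 4.64 to 5.01 CPM.

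Among lower genes, the smallest p belonged to EYA1 and the next to SOX11, both regulators of development. EYA1, a transcriptional coactivator with phosphatase activity, was at 53.8, 36.0 and 28.5 CPM in Parental cells and at 5.01, 4.79 and 4.64 CPM in Bottom 5 cells. The crossed libraries were nearly equal, and EYA1 fell by 3.03 ± 0.31 on the log2 scale (adjusted p = 1.62e-05), with an adjusted p of at most 7.58e-04 when any 1 library was left out. SOX11, a factor of neural progenitors, was at 128, 129 and 83.9 CPM in Parental cells and at 32.4, 25.4 and 16.3 CPM in Bottom 5 cells, and fell by 2.20 ± 0.29 (adjusted p = 3.77e-04). SOX8, a factor of the same subgroup as SOX10, had 264 counts over the 3 Parental libraries and 2 over the Bottom 5 libraries, a ratio of 137 (95% counting interval 37.4 to 1134). Its parental counts came mostly from 1 library, at 12.6 CPM against 1.43 and 1.24 CPM, and it was called in 3 of the 6 fits without a library. These 3 were the called members among 23 tested genes of the neural crest and SOX list (3 lower, 0 higher, against 0.592% and 0.267% of all genes). The median log2 fold change of the list was -0.23, against 0.02 over all genes. With the replicate block, 7 members were lower and 1 higher in the 2 groups (2.64% and 1.18% of all genes) and 4 lower and 0 higher in the fit of 10 groups (0.975% and 0.455%). TFAP2B, a further neural crest factor, was at 612, 148 and 78.8 CPM in Parental and at 56.0, 7.11 and 3.74 CPM in Bottom 5, with an adjusted p of 0.113, or 0.00166 and 0.0323 with the block in 2 and in 10 groups. SOX9, at 0.994, 2.06 and 5.63 CPM against 3.90, 7.42 and 11.4 CPM, was the member that was higher with the block in the 2 groups (adjusted p = 0.0259, and 0.274 in 10 groups). SNAI2, a mesenchymal transcription factor of the neural crest, averaged 2.65 ± 2.64 and 0.232 ± 0.161 CPM (SD, n = 3, adjusted p = 0.0400 by edgeR). SNAI2 was the only called gene of 15 mesenchymal factors and cadherins (0.858% of all genes were called). It was called in 1 of the 6 fits without a library, with an adjusted p of 0.493 by edgeR without Parental replicate 1.

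The other lower genes named by rule include cell surface and matrix genes, while 0 genes were called in the lists of basement membrane (19 tested), interstitial collagens and matrix (29) and matrix proteases and inhibitors (28). With the block in the 2 groups, these lists had in order 1, 1 and 0 genes higher and 1, 2 and 2 lower (1.18% and 2.64% of all genes). In 10 groups 0 were higher in each, and 0, 1 and 2 lower (0.455% and 0.975%). SORCS1, a neuronal sorting receptor, was at 85.3, 41.0 and 26.4 CPM in Parental cells and at 3.34, 0.669 and 0.798 CPM in Bottom 5 cells, and fell by 5.01 ± 0.71 (log2, adjusted p = 6.63e-04). XYLT1, which starts the sugar chains of proteoglycans, was at 42.5, 23.4 and 17.1 CPM against 4.82, 0.824 and 2.24 CPM, and fell by 3.41 ± 0.57 (adjusted p = 0.00270). SCARA5, a ferritin receptor, was at 18.6, 17.3 and 9.68 CPM against 2.04, 1.34 and 1.45 CPM, and fell by 3.24 ± 0.53 (adjusted p = 0.00225). These 3 genes were called in each fit that left out 1 library. ITGA9, an integrin subunit that pairs with integrin β1, was at 68.3, 16.5 and 9.85 CPM against 4.76, 1.18 and 1.89 CPM (adjusted p = 0.0448, kept in 1 of 6 such fits). It was the only called gene of 15 other integrin subunits (0.858% of all genes were called). The median of this list was -0.33, but -0.05 without Bottom 5 replicate 2 and -0.02 without Parental replicate 1. ITGB3, the integrin β3 subunit, was at 731, 321 and 199 CPM against 280, 37.9 and 53.2 CPM and had an adjusted p of 0.475, or 0.0140 and 0.344 with the block in 2 and in 10 groups. MGP, which inhibits calcification of matrix, and GRM8, a metabotropic glutamate receptor, had log2 fold changes of -3.54 and -4.50 and were each kept in 1 of 6 fits. VAT1L, TESC, TRIL and ZNF521 completed the 12 lowest, between -3.51 and -2.97.

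Of 35 neuronal adhesion and guidance genes, 2 were called lower and 0 higher (0.592% and 0.267% of all genes), 14 were positive and the median was -0.18, or 0.00 without Bottom 5 replicate 2. EPHB3, a receptor for ephrin-B ligands, was at 33.3, 26.9 and 25.4 CPM in Parental cells and at 13.0, 10.6 and 9.32 CPM in Bottom 5 cells (log2 fold change -1.38 ± 0.25, adjusted p = 0.00667). SEMA6A, a transmembrane semaphorin, was at 7.60, 8.99 and 8.11 CPM against 3.22, 2.32 and 3.39 CPM (adjusted p = 0.0270). For both genes the libraries did not overlap, as for every called gene. Over the list, 7 genes were lower and 4 higher without overlap (6.59% and 7.15% of all genes). With the block in the 2 groups, 5 were lower and 2 higher (2.64% and 1.18% of all genes). In 10 groups 5 were lower and 0 higher (0.975% and 0.455%). The lower ones included CNTN1, a neural cell adhesion molecule, and EPHA3, a receptor for ephrin-A ligands. Over the 10 Schwann and neuronal markers the summed level was 521 to 583 CPM in Parental and 343 to 579 CPM in Bottom 5, and the part of such cells in the result was not tested. In bulk RNA, fewer cells of a type and less RNA per cell cannot be told apart.

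Of 29 growth factor and ERBB pathway genes, 1 was called (0.858% of all genes were). PDGFA, a ligand of platelet-derived growth factor receptors, was at 3.33, 5.19 and 5.41 CPM in Parental cells and at 19.8, 10.7 and 8.13 CPM in Bottom 5 cells. The ranges did not overlap, and the log2 fold change was 1.47 ± 0.35 (adjusted p = 0.0469), which was 0.0892 with the block in the 2 groups and 0.0416 with it in 10 groups, and did not pass in any of the 6 fits without a library. The median of the list was 0.43, but 0.01 without Bottom 5 replicate 1. With the block in the 2 groups, 5 members were higher, among them the ERBB ligands HBEGF and NRG1, and 3 were lower (1.18% and 2.64% of all genes). In 10 groups 4 were higher and 1 lower (0.455% and 0.975%). NRG1 was at 1.29, 7.30 and 10.9 CPM against 14.1, 33.6 and 42.0 CPM (adjusted p = 0.0952, and 0.00684 and 0.0583 with the block in 2 and in 10 groups). IGFBP5, a binding protein of insulin-like growth factors, was at 47.4, 52.8 and 17.7 CPM against 3.83, 5.61 and 3.39 CPM (adjusted p = 0.130, and 0.00268 and 0.00745 with the block in 2 and in 10 groups).

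Some lists had medians away from 0 without a called gene. Among 25 YAP and TEAD targets, genes driven by the mechanosensitive coactivator YAP, 18 had a positive log2 fold change and the median was 0.62, against 52.5% positive and 0.02 over all genes. None was called by edgeR, and 6 were higher without overlap (7.15% of all genes were). With the block in the 2 groups, 4 were higher and 1 lower (1.18% and 2.64% of all genes), and with it in 10 groups 0 were called. ANKRD1, a target in this list, was at 1.93, 11.4 and 18.2 CPM in Parental and at 28.8, 34.7 and 42.3 CPM in Bottom 5 (adjusted p = 0.518, and 0.0457 and 0.276 with the block in 2 and in 10 groups). Among 29 genes of the dedifferentiated melanoma state the median was 0.40 (0.25 without Parental replicate 1) and 0 were called. With the block 5 were higher in the 2 groups and 0 in 10 groups (1.18% and 0.455% of all genes). AXL, a receptor kinase of this state, was at 287, 307 and 405 CPM against 862, 436 and 693 CPM (adjusted p = 0.414, and 0.0621 and 0.353 with the block in 2 and in 10 groups). Inflammatory and NF-kB genes had a median of 0.46 over 19 genes with 0 called, and of 0.05 without Bottom 5 replicate 1. CXCL8, a neutrophil chemokine, was at 9.06, 12.8 and 11.5 CPM against 25, 49.7 and 24.7 CPM (adjusted p = 0.241, and 0.0110 and 0.155 with the block in 2 and in 10 groups). In the WNT list the median was -0.31 (-0.67 without Bottom 5 replicate 1) and 6 of 24 genes were positive, with 0 called. The receptor FZD7, at 120, 48.0 and 34.2 CPM against 32.2, 19.3 and 15.1 CPM, had an adjusted p of 0.0945, or 0.00900 and 0.0572 with the block in 2 and in 10 groups.

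Proliferation and housekeeping lists moved with single libraries. For 36 G2 and mitosis genes, 33 were positive with a median of 0.35, which was 0.07 without Parental replicate 1. Within the pairs of replicates 1, 2 and 3 their medians were 0.46, 0.31 and 0.21, positive in each. The median of 35 DNA replication and S phase genes was 0.23, and -0.10 without Parental replicate 1, 0.46 without Bottom 5 replicate 1 and 0.11 without Bottom 5 replicate 2. Within the same pairs it was 0.46, 0.15 and 0.18. Leaving out 1 library of a pair leaves its partner unmatched. All 30 ribosomal protein genes were positive with a median of 0.24, which was 0.03 without Bottom 5 replicate 2, and the medians within the pairs of replicates 1, 2 and 3 were -0.14, 0.69 and 0.10. None of these genes was called. PFKFB3, an activator of glycolysis, was the only called gene of 30 in the hypoxia and glycolysis list (0.858% of all genes were called). It was at 214, 149 and 122 CPM in Parental and 70.4, 62.1 and 81.9 CPM in Bottom 5 (log2 fold change -1.18 ± 0.27, adjusted p = 0.0390). The nuclear envelope list had a median of 0.01 over 20 genes with 0 called. LMNA, which encodes the lamins that set nuclear stiffness, was at 1080, 1879 and 1877 CPM against 2441, 2245 and 1921 CPM (adjusted p = 0.662). Heterochromatin and Polycomb genes (36 tested), cohesin, condensin and CTCF (21), and DNA damage response and repair (28) had medians of -0.08, 0.11 and 0.10 with 0 called, and of 0.02, -0.09 and -0.10 without Parental replicate 1.

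**Figure D3:**
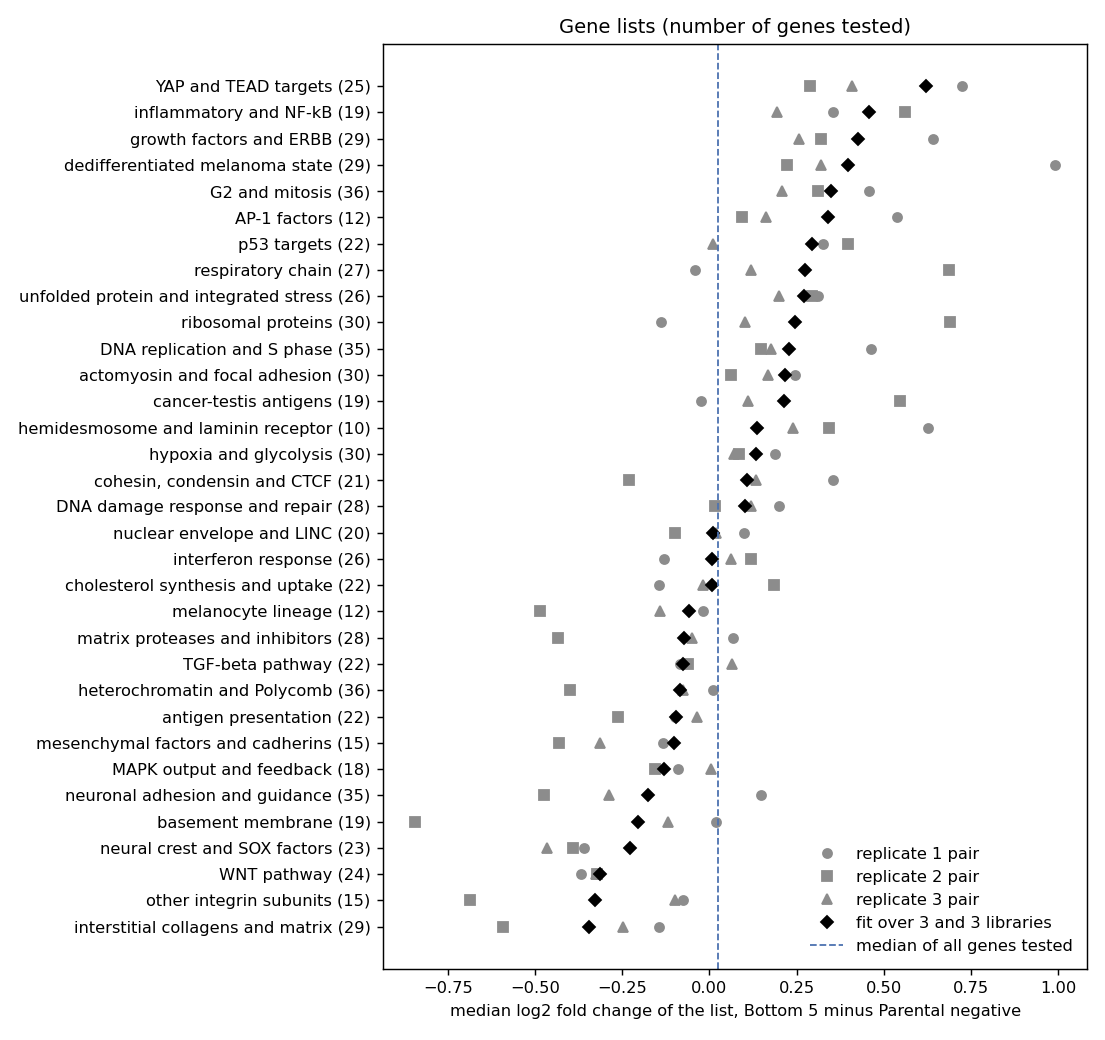
Median log2 fold change (horizontal axis) of each gene list other than the cell type markers, with the number of genes tested, in the fit (black) and within each pair of equal replicate number (grey). Among the lists drawn, YAP and TEAD targets have the highest median (0.62) and interstitial collagens and matrix the lowest (-0.35), and several lists, such as ribosomal proteins, differ more between pairs than from the line at 0.02.

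Several genes were close to silent in Bottom 5 cells. TRIM51, of a family with near-identical copies that counting may split, had 153 counts over the Parental libraries and 1 over Bottom 5 (ratio 158, 95% counting interval 28.0 to 6295), and was called in all 6 fits without a library. SGCD, a sarcoglycan of the membrane complex of muscle, had 58 and 2 counts and was called in 2 of those fits. IRX6, a homeobox gene, had 35 and 0 counts, where a count of 0 allows up to 3 over the group. It was called in 0 of those fits. In the opposite direction, SGCZ, another sarcoglycan, was at 0.643, 0.159 and 0.0563 CPM in Parental cells and at 5.5, 4.22 and 3.14 CPM in Bottom 5 cells (log2 fold change 3.89 ± 0.63, adjusted p = 0.00225). These genes, like the others outside the naming rule, were picked after their values were seen.

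Bottom 5 negative cells were also set against the other parental sort. This comparison was added after the data were seen and rests on the same Bottom 5 libraries. The 4 genes given first were called against Parental negative cells both in Bottom 5 and in Parental positive cells. That they lay nearer to Parental positive than to Parental negative cells follows largely from this choice. For FOXP1, Parental negative cells averaged 4.54 ± 1.15 CPM, Parental positive cells 19.2 ± 2.96 and Bottom 5 negative cells 25.8 ± 1.95 (SD, n = 3 each). ZFPM2 stood at 8.07 ± 0.902, 25.7 ± 3.05 and 30.8 ± 4.35 CPM in the same order, and EYA1 at 39.4 ± 13.0, 9.27 ± 2.90 and 4.81 ± 0.188 CPM. For SOX11 the values were 114 ± 25.8, 36.3 ± 14.4 and 24.7 ± 8.10 CPM. Tested directly against Parental positive cells, 0 genes were called in Bottom 5 negative cells by edgeR and 2 by DESeq2. In the edgeR test 333 genes had an unadjusted p under 0.05, below the 769 expected with no difference. The difference was 0.43 ± 0.30 (log2, SE) for FOXP1, 0.26 ± 0.22 for ZFPM2, -0.56 ± 0.28 for SOX11, -0.95 ± 0.30 for EYA1 and -2.50 ± 0.65 for SORCS1, each with an adjusted p of 0.999. An adjusted p of this size does not show that the 2 groups were alike. Between the parental sorts themselves 9 genes were called (0.0585%), among them FOXP1, ZFPM2, FBXL7, ANKRD30A, EYA1 and SOX11, and that test shares the Parental negative libraries with the comparison above.

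**Figure D4:**
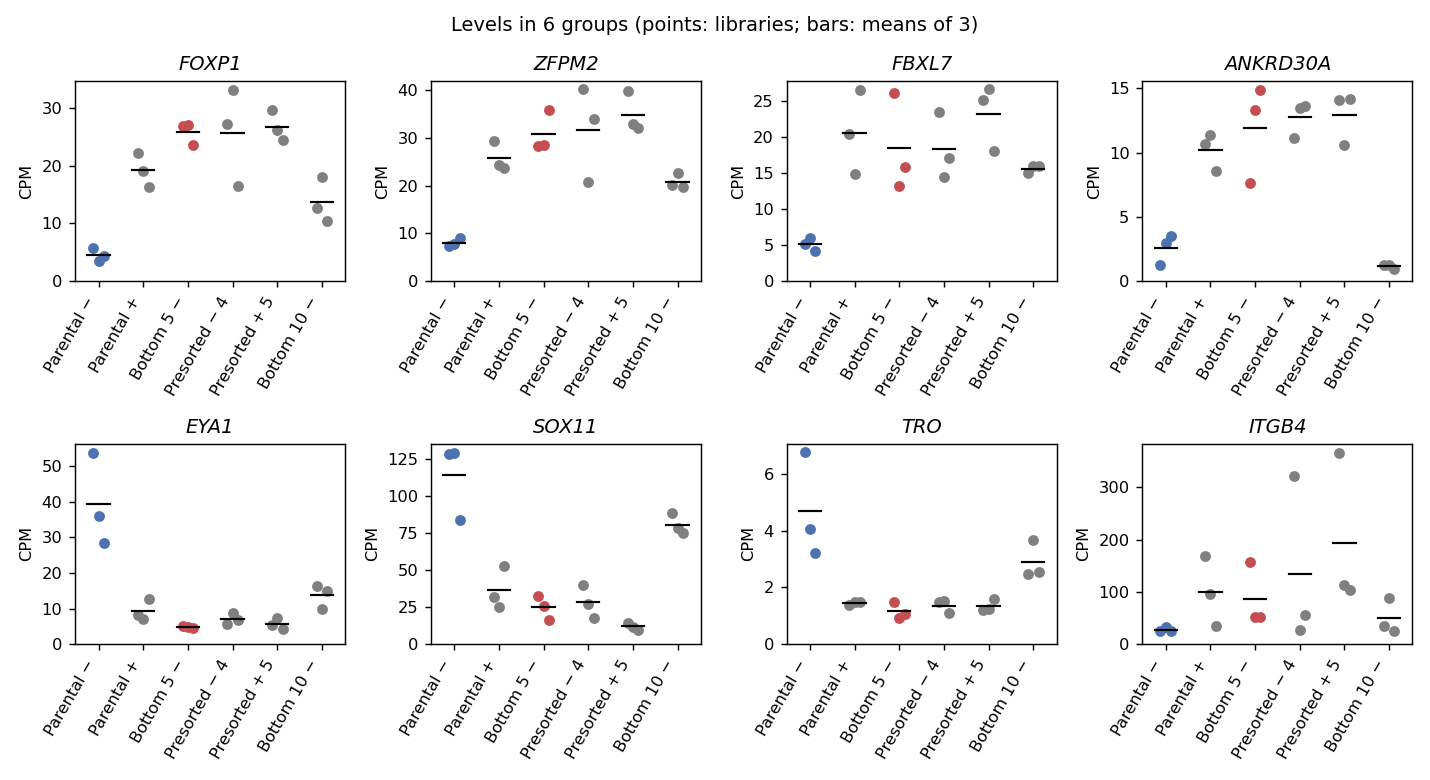
CPM of 8 genes in 6 groups of 3 libraries (points) with their means (bars), where − and + give the ITGB4 sort and the number the rounds of crossing. For FOXP1 the Bottom 5 negative mean (25.8 CPM) lies near Presorted negative cells after 4 rounds (25.6 CPM), and for ANKRD30A Bottom 10 negative cells (1.18 CPM) lie below all 3 Bottom 5 libraries.

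Cells that had crossed 10 times differed from those after 5 in part of this set. Tested directly, 18 genes differed between Bottom 10 negative and Bottom 5 negative cells (0.117%), 9 in each direction. This test rests on the same Bottom 5 libraries by which the 132 genes were called, so that choice favours a move back toward Parental levels. Over the 132 genes the median log2 difference, 10 against 5 rounds, was -0.81 for the higher and 0.84 for the lower genes. Reads assigned to no gene made up 22.5 to 23.6% in the Bottom 10 negative libraries and 24.8 to 28.2% in the Bottom 5 negative libraries. The part of this difference in the results was not tested. ANKRD30A averaged 11.9 ± 3.78 CPM after 5 rounds and 1.18 ± 0.159 CPM after 10 (SD, n = 3, log2 difference -3.33 ± 0.37, adjusted p = 4.75e-05 by edgeR). SOX11 was at 24.7 ± 8.10 and 80.6 ± 6.81 CPM (1.71 ± 0.29, adjusted p = 0.0111 by edgeR, n = 3). EYA1 was at 4.81 ± 0.188 and 13.8 ± 3.36 CPM (1.51 ± 0.30, adjusted p = 0.0361 by edgeR, n = 3). PXDN, which crosslinks collagen IV, was higher after 10 rounds by 2.25 ± 0.37 (adjusted p = 0.00760) and was not called between 5 rounds and Parental cells (-0.09). The count was 2, 7 and 10 without Bottom 10 replicates 1, 2 and 3, 4 and 6 without Bottom 5 replicates 2 and 3, and 0 in fits of the compared groups alone.

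The order of sorting and crossing was examined with cells sorted as negative before crossing 4 times (Presorted negative). Against Bottom 5 negative cells, 0 genes (0%) were called by edgeR and also 0 by DESeq2. By edgeR 353 genes had an unadjusted p under 0.05, below the 769 expected with no difference. FBXL7 was at 18.5 ± 6.85 CPM in Bottom 5 negative and 18.4 ± 4.60 CPM in Presorted negative cells, and SORCS1 at 1.60 ± 1.51 and 1.64 ± 0.560 CPM (SD, n = 3 each). The number of rounds and the order of sorting differ together here and cannot be told apart. In the positive arm, Presorted positive cells after 5 rounds were set against Parental positive cells, which share no library with the negative arm. There 6 genes were called (0.0390%), of which SOX11, SORCS1, LPL and ZNF536 were also called here. SORCS1 averaged 8.87 ± 7.41 CPM before and 0.595 ± 0.329 CPM after crossing in that arm (-3.87 ± 0.72, adjusted p = 0.0388 by edgeR, SD over n = 3). FOXP1, at 19.2 ± 2.96 and 26.7 ± 2.60 CPM, was not called there (0.48 ± 0.30). The test of the difference between the arms called 0 genes by edgeR and 7 by DESeq2. The arms differ both in the ITGB4 sort and in the order of sorting and crossing, and these cannot be told apart. In edgeR 380 genes had an unadjusted p under 0.05, again below 769. For EYA1 edgeR gave -2.32 ± 0.42 with an adjusted p of 0.185.

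Chromosome 20 stood below the others in gene expression. Its 410 tested genes had a median log2 fold change that differed by -0.247 from that of all genes, with 27.1% of genes positive. The pairs of replicates 1, 2 and 3 gave -0.169, -0.315 and -0.264, so the lower level was present in each. Of its genes 6 were called lower and 1 higher, or 1.71% against 0.858% of all genes, a share below that of chromosomes 13 (2.18%) and 8 (1.92%). GNAS, the stimulatory G protein subunit with an antisense gene at its locus, was at 3615, 2716 and 1783 CPM in Parental cells and at 1193, 939 and 767 CPM in Bottom 5 cells (log2 fold change -1.48 ± 0.26, adjusted p = 0.00550). CTSZ, a lysosomal protease, was at 417, 541 and 344 CPM against 183, 222 and 167 CPM (adjusted p = 0.0338). Chromosome 13 had the next lowest median, at -0.110, and DNA copy number was not measured in these libraries. Gene symbols were placed with the RefSeq table of GRCh38.p14, whereas the counts were made on hg19.

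**Figure D5:**
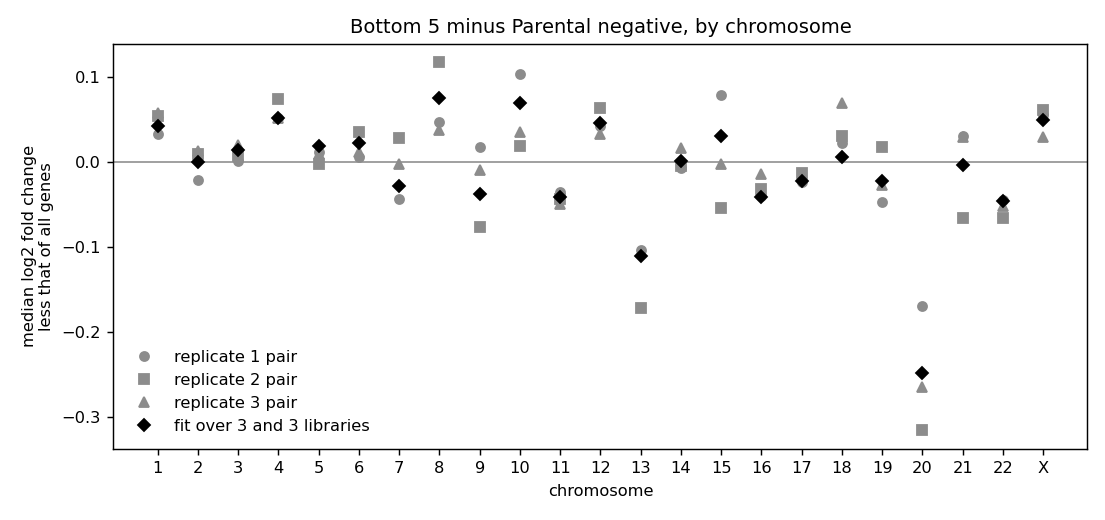
Median log2 fold change of the genes on each chromosome less that of all genes (vertical axis), in the fit (black) and within each pair of equal replicate number (grey). Chromosome 20 lies lowest at -0.247, followed by chromosome 13 at -0.110.

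Among 14136 tested genes ordered along the chromosomes, 121 called genes could be placed, and 3 pairs of them were next to each other. Whether this is more than a random order would give was not tested. FOXP1 lay beside EIF4E3, a member of the cap-binding protein family, which was at 0.585, 0.582 and 0.901 CPM in Parental cells and at 4.08, 4.63 and 2.44 CPM in Bottom 5 cells (adjusted p = 0.0400). EIF4E3 was called in 0 of the 6 fits without a library. On the other side of FOXP1, MITF was not called (0.17 ± 0.21). EYA1 lay beside MSC, a transcription factor gene at 15.2, 11.4 and 11.7 CPM against 6.25, 3.19 and 2.74 CPM (adjusted p = 0.0125), and LACTB2 on its other side was not called (0.50 ± 0.25). Each pair moved in 1 direction. The third was LOC158435 with HSD17B3, a steroid dehydrogenase gene, which fell together (HSD17B3 log2 fold change -2.28).

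Promoter windows of 250 bases before the gene start were searched on both strands for motifs of factors in the lists, in RefSeq sequences that matched 24 of 41 higher and 54 of 91 lower genes. The AP-1 motif TGANTCA was in 8.33% of higher, 5.56% of lower and 4.18% of all 11262 matched genes. The SNAI E-box CAGGTG was in 16.7% of higher, 16.7% of lower and 15.8% of all. For the TEAD motif GGAATG the shares were 8.33%, 3.70% and 9.66%, and for the SOX motif ACAATG 4.17%, 1.85% and 5.17%. With 24 and 54 genes these shares rest on at most 9 windows each. A match is a description of letters and not a site. Below is the window of FOXP1 (GRCh38.p14, chr3:71583729-71583978, minus strand), which holds none of these motifs and is shown because FOXP1 was among the higher genes called without any 1 library, and that of ATP8A2, a lower gene of chromosome 13 that encodes a phospholipid flippase (chr13:25371724-25371973, plus strand), with the E-box in capitals.
FOXP1: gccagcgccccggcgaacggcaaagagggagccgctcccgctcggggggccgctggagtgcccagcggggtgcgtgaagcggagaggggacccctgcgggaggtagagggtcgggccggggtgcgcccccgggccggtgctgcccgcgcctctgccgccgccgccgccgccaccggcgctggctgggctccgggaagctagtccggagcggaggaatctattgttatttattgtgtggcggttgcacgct
ATP8A2: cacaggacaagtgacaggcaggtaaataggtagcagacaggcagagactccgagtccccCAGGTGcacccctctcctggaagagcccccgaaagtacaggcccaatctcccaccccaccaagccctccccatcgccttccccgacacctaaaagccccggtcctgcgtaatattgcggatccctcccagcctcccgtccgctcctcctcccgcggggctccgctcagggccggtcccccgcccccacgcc
ATP8A2 was at 3.16, 3.55 and 3.89 CPM in Parental cells and at 0.433, 0.669 and 0.698 CPM in Bottom 5 cells, and fell by 2.54 ± 0.37 (log2, adjusted p = 9.85e-04).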

How the data were processed

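Per the labels' protocols, polyadenylated RNA was sequenced. The authors deposited 1 table of raw counts for each library, with a row for each gene symbol. Per the submitters' processing notes, STAR, HTSeq, DESeq and hg19 were used. Tool versions, the strand setting and the gene models are not given in the sources used here. Closing rows of reads assigned to no gene (24.8 to 28.2% of reads in the 6 libraries) stayed out of all totals.

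Genes passing the edgeR filter (minimum count 10, minimum total 15; 15381 of 26364) were scaled with TMM factors and fitted by edgeR 4.0.16 quasi-likelihood in R 4.3.3, with all 30 libraries in 10 groups, and p-values were adjusted by Benjamini-Hochberg over all genes at 0.05. CPM use TMM-scaled totals. SE is the log2 fold change divided by the square root of F. Principal components used log levels with a prior count of 2. On simulated counts of 15213 genes for the comparison of Bottom 5 with Parental negative cells, the fit called 30 of 100 2-fold and 84 of 99 4-fold changes, with 5 false among 119 calls. The same fit with a replicate block called 27 and 84. The blocked fit of the 2 groups alone (14239 genes) called 0 of 100 and 0 of 98, in counts simulated without replicate effects.

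Genes and lists were chosen with earlier results of these data known. Named genes are ITGB4, the 12 highest and 12 lowest called log2 fold changes among genes whose libraries did not overlap and whose mean reached 5 CPM in a group, and up to 3 called members of each of 38 lists, or the member with the smallest p. A called gene that this rule names is not reported here. Equal replicate numbers were taken as pairs because deviations from group means correlated at 0.590, 0.379 and 0.415. Parental replicate 2 with Bottom 5 replicate 3 gave 0.436, above the values of the equal numbers 2 and 3, and the labels do not state a pairing. Alternatives were DESeq2 1.42.0, RLE factors, no filter, a replicate block, only the compared groups and leaving out each library. Added after seeing the data were the comparison with Parental positive cells, the chromosome and neighbour order, the block without each replicate number, and a fit without 6 libraries apart on the second component (score above 30). Promoter sequences came from RefSeq (GRCh38.p14).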

Additional observations from a re-analysis of the deposited data

Results flagged for a closer look

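In 3 of the named genes the change from Parental negative cells differed between 5 and 10 rounds, by a direct test of the 2 crossed groups (edgeR, n = 3 each). ANKRD30A was lower after 10 rounds by a log2 difference of -3.33, from 11.9 to 1.18 CPM. EYA1 was higher after 10 rounds by 1.51, from 4.81 to 13.8 CPM. SOX11 was higher after 10 rounds by 1.71, from 24.7 to 80.6 CPM. The 3 genes were called with the same Bottom 5 libraries, and that choice favours a move back toward Parental levels. These 2 groups also differed in the share of reads assigned to no gene.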

How the results depend on the processing

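On simulated counts the fit of all 30 libraries missed most 2-fold changes between the 2 groups, so a gene outside the calls is not shown to be equal. The direction of all 32 named genes held in every alternative that gave a value. The 132 calls (41 higher, 91 lower) became 322 with DESeq2 (108 and 214), 220 with the replicate block in all 10 groups (70 and 150), 542 with the replicate block in only the compared groups (168 and 374) and 0 (0 and 0) with only the compared groups and no block. They were 76 (44 lower) without the 6 libraries apart on the second component, which left out Bottom 5 replicate 2, and the higher calls fell to 26 without a filter on low counts. Leaving out 1 library gave 29 to 124 calls (8 to 27 higher, 18 to 97 lower). The blocked fit of the compared groups gave 1489, 81 and 800 calls without replicate 1, 2 and 3, and the blocked fit of all groups 6, 43 and 24. Of the 31 called named genes, 1 lost its call with the block in the compared groups (PDGFA), and 31 with only those groups and no block. The 18 genes between 10 and 5 rounds became 95 with DESeq2, 38 with the block in all groups, 0 with only the compared groups, 0 with the block in those groups, 11 without the 6 libraries, and 2 to 13 without 1 library. For the interaction of the 2 arms, 1 gene was called without the 6 libraries and 7 with DESeq2, against 0. For Bottom 5 negative against Parental positive cells DESeq2 called 2 genes. List medians moved by less than the spread between libraries with RLE factors and with the block. The cause of these differences was not tested. RLE factors kept the calls of all 31 named genes, and those of 26 remained with no filter.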

Other observations

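Other called genes are given here as single values, picked after those were seen. ALCAM, an immunoglobulin cell adhesion molecule, was at 39.9, 39.7 and 50.8 CPM in Parental negative and at 84.4, 62.5 and 94.1 CPM in Bottom 5 negative cells (log2 fold change 0.89 ± 0.21, adjusted p = 0.0448 by edgeR). The protocadherin genes went in opposite directions, PCDH17 from 8.78 ± 1.93 to 24.1 ± 3.40 CPM and PCDH7 from 18.2 ± 2.44 to 4.72 ± 0.554 CPM (SD, n = 3, adjusted p = 0.0245 and 0.0448 by edgeR). They were called in 2 and 0 of the 6 fits without a library. CAV2, a caveolin, was at 15.4, 21.7 and 21.7 CPM against 29.4, 66.0 and 48.6 CPM (adjusted p = 0.0460). Its neighbour CAV1, at 51.3, 212 and 342 CPM against 180, 623 and 701 CPM, was not called (adjusted p = 0.513), and its libraries differed more between replicate 1 and the others than between the groups.

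Some lower genes were picked in the same way. MCF2L, a guanine nucleotide exchange factor, was at 54.3, 43.6 and 32.1 CPM against 15.4, 8.91 and 12 CPM (adjusted p = 0.00225). ELMO1, a partner of a Rac exchange factor, was at 84.5, 58.5 and 49.2 CPM against 28.4, 25.9 and 32.8 CPM (adjusted p = 0.0169). SIRPA, the receptor for CD47, averaged 23.4 ± 2.50 and 10.7 ± 0.716 CPM (SD, n = 3, adjusted p = 0.00225 by edgeR). LPL, lipoprotein lipase, averaged 25.4 ± 1.21 and 9.08 ± 2.45 CPM (adjusted p = 0.0185 by edgeR). PLAU, the urokinase gene, was at 12.1 CPM in Bottom 5 replicate 2 and at most 0.548 CPM in the other 5 libraries.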
